A study of Mus musculus with 2 samples.

Results

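Interferon-high B cells are spleen B cells in which a group of interferon-induced transcripts was counted at a raised level. They were chosen by their own counts. A barcode had to hold at least 300 genes and 500 UMIs (unique molecular identifiers, each standing for 1 counted RNA molecule) with under 10% mitochondrial UMIs. It then had to carry at least 4 UMIs of Cd79a (a chain of the B cell receptor), none of Cd3e, fewer than 5 of Lyz2 and none of Cd93, with fewer than 3 of the 6 activation genes Egr3, Nfkbid, Il4i1, Bcar3, Myc and Smyd5 detected. Cells that passed are called gated B cells here. Those with 5 or more UMIs summed over Isg15, Ifit1, Ifit3, Rsad2, Usp18, Serpina3g and Serpina3f, the 7 rule genes, are the interferon-high cells, and the remaining 5464 are called other gated B cells. There were 460 interferon-high cells in the Glutoborin library and 1101 in the Vehicle library, 1561 of the 15941 cells that passed the barcode filters.

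The study profiled CD45+ (leukocyte) cells sorted from spleens of wild-type (WT) mice, all injected intraperitoneally with 10000 iRBCs, an abbreviation that the labels do not spell out although they call it an infection, and collected on day 5. One library came from mice given Glutoborin on days 2 and 4, and the other from mice given Vehicle on the same days. The strain, age and number of mice behind each library are not given in the sources used here, nor is the nature of Glutoborin. With 1 library per group no test between treatments can be made, no p-value is given, and a difference between treatments cannot be told apart from a difference between these libraries. Intervals are exact at the 95% level and cover counting error only.

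Type I interferons signal through the receptor chains Ifnar1 and Ifnar2 to the kinases Jak1 and Tyk2. These activate a transcription factor complex that includes Stat2 and Irf9 and binds the interferon-stimulated response element (ISRE). Interferon gamma signals through Ifngr1 and Ifngr2 and acts on another element, GAS. In B cells either signal induces antiviral genes, genes of antigen presentation and feedback inhibitors such as Socs1 and Usp18. Among the rule genes, Isg15 is a ubiquitin-like modifier, Usp18 removes it from proteins, Ifit1 and Ifit3 are RNA-binding antiviral proteins, and Rsad2 (viperin) is an antiviral enzyme. Serpina3g and Serpina3f are mouse serpins, a family of protease inhibitors, that lie side by side on chromosome 12 among near-identical relatives, so that reads can be split between family members and their separate counts are uncertain.

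The upstream sequences of rule genes are shown because the 2 serpins and the antiviral genes that could be searched hold different ones of these elements. RefSeq promoters on GRCm38.p6 were found for 6 of the 7 rule genes, all but Usp18. The 250 bases upstream of the start were searched on both strands for an ISRE core, GAAA followed by any 2 bases and GAAA again (on the other strand TTTC, any 2 bases and TTTC), and for a GAS core, TTCNNNGAA, which reads alike on both strands. Of 32851 promoters in the table, 2.98% held the first and 7.02% the second. The sequences of 4 rule genes follow, 2 antiviral genes and the 2 serpins, read 5′ to 3′ towards the start, with matches in capitals. They come from chr4:156200819-156201068 on the minus strand, chr19:34583279-34583528 on the plus strand, chr12:104235897-104236146 on the plus strand and chr12:104214294-104214543 on the plus strand.
Isg15: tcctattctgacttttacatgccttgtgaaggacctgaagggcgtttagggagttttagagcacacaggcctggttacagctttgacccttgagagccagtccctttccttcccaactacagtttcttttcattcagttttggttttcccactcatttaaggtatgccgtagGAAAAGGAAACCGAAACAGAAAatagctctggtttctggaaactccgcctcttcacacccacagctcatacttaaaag
Ifit3: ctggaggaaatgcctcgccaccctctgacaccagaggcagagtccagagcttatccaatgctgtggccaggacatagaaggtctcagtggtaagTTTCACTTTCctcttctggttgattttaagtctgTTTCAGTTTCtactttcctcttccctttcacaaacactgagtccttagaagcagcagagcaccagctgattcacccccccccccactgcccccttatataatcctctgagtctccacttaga
Serpina3g: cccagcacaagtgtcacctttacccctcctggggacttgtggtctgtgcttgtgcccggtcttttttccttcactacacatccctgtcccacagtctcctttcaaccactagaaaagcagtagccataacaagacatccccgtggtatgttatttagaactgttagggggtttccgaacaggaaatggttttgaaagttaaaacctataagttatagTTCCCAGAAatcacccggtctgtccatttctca
Serpina3f: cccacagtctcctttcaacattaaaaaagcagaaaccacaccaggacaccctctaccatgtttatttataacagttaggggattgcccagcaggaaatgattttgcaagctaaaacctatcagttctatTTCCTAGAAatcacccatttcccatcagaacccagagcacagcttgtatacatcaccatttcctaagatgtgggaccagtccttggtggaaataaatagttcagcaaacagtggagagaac
The window of Isg15 held 3 overlapping ISRE cores, the first of them 78 bases before the start, and that of Ifit3 held 2, at 156 and 122 bases. The windows of Ifit1 and Rsad2 held 2 and 1. None of these 4 held a GAS core. The window of Serpina3g held 1 GAS core, TTCCCAGAA, 33 bases before the start, and that of Serpina3f held 1, TTCCTAGAA, at 121 bases, and neither held an ISRE core. Among list genes with a promoter in the table, an ISRE core stood in 24 of 64 type I interferon-induced genes (37.5%) and in 11 of 26 interferon gamma-induced genes (42.3%), and a GAS core in 7 (10.9%) and 12 (46.2%). Outside the rule, the window of Socs1 held 2 ISRE cores and no GAS core, and that of Pkib, described below, 1 GAS core and no ISRE core. The GAS cores of the 2 serpins are followed by the same bases and may not be separate cases, since these genes are close relatives. A match describes these letters and is not a shown binding site.

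Interferon-high cells made up 10.7% of the 4317 gated B cells in the Glutoborin library (interval 9.75 to 11.6%) and 40.7% of the 2708 in the Vehicle library (38.8 to 42.5%). The log2 ratio of the shares was -1.93 (-2.09 to -1.77). Gated B cells without a single UMI of any rule gene were 43.5% in Glutoborin and 12.9% in Vehicle. At the other end, cells with 15 or more rule UMIs were 0.579% (25 cells) in Glutoborin and 6.06% (164 cells) in Vehicle. Low sums were thus more common and high sums less common in Glutoborin, and neither distribution had a gap at the limit of 5: 135 Glutoborin and 184 Vehicle cells stood at exactly 5, and 192 and 223 just below it at 4.

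**Figure D1:**
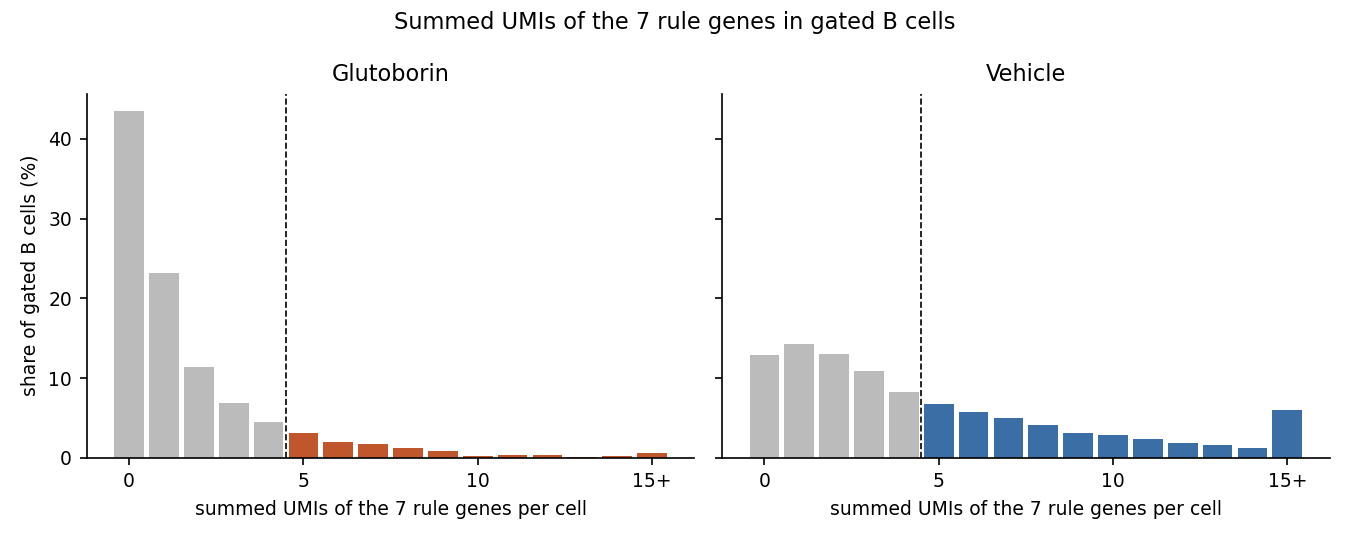
Share of gated B cells in percent at each summed UMI count of the 7 rule genes, in the Glutoborin (left) and Vehicle (right) libraries, with all counts of 15 or more in the last bar. The coloured bars to the right of the dashed line are the interferon-high cells, 10.7% of gated B cells in Glutoborin and 40.7% in Vehicle.

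The rule counts UMIs, so depth enters it. Interferon-high cells had medians of 4480 UMIs in Glutoborin and 4774 in Vehicle, and other gated B cells 3927 and 4366. With each cell thinned to 2000 UMIs, which left out 48 Glutoborin and 37 Vehicle cells, the shares at 5 or more rule UMIs were 2.55% and 14.1%, and at 3 or more 8.71% and 30.6%. In activated B cells, which the rule leaves out, 15.4% in Glutoborin and 56.1% in Vehicle reached 5 rule UMIs, and in Cd93-positive B cells 12.1% and 46.6%. Of T cells (at least 2 UMIs of Cd3e and none of Cd79a), which had medians of 5840 and 6668.5 UMIs, 12.9% and 38.4% reached it. The share was lower in Glutoborin in each of these cell groups. The libraries shared 24 barcode sequences, of which 3 fell among the Glutoborin and 2 among the Vehicle interferon-high cells, and none was interferon-high in both.

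The makeup of the rule UMIs differed between the 2 libraries, in interferon-high and in other gated B cells alike. Serpina3g and Serpina3f gave 75.2% of all rule UMIs in Glutoborin interferon-high cells (73.8 to 76.6%) and 55.3% in Vehicle ones (54.4 to 56.3%), and in other gated B cells 73.9% in Glutoborin and 53.0% in Vehicle. Of the Glutoborin cells, 200 of 460 (43.5%, 38.9 to 48.1%) carried no UMI of the other 5 rule genes, against 166 of 1101 Vehicle cells (15.1%, 13.0 to 17.3%). All 7 rule genes were detected together in 1 Glutoborin cell and 28 Vehicle cells. Counted by the 5 antiviral genes alone, 1.11% of Glutoborin and 13.7% of Vehicle gated B cells had 5 or more UMIs, a log2 ratio of -3.62 (-4.09 to -3.19), and by the 2 serpins alone 7.76% and 23.6%, a log2 ratio of -1.61 (-1.80 to -1.41).

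As levels, in CPM (UMIs per 1000000 of the group's summed UMIs), the serpins were close to equal between treatments among interferon-high cells while the antiviral genes were not. Serpina3g had 832 CPM in Glutoborin and 813 CPM in Vehicle interferon-high cells, and Serpina3f 199.8 and 184.8 CPM. Isg15 had 139 CPM in Glutoborin and 264 CPM in Vehicle interferon-high cells, and Ifit3 had 93.1 and 267 CPM. Ifit1 had 32.3 and 96.3 CPM, Rsad2 21.03 and 61.3 CPM and Usp18 54.8 and 116 CPM. The log2 ratio of Glutoborin over Vehicle was 0.03 (-0.04 to 0.11) for Serpina3g and 0.11 (-0.04 to 0.26) for Serpina3f, and it ran from -1.58 (Ifit1) to -0.93 (Isg15) for the other 5. These 7 genes chose the cells with the same limit in both libraries, so their levels are a description. In other gated B cells all 7, the serpins included, were lower in Glutoborin. Their log2 ratios there ran from -2.07 to -0.29, with intervals below 0. Ifit3 has a near-identical neighbour, Ifit3b, so its count too is uncertain.

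**Figure D2:**
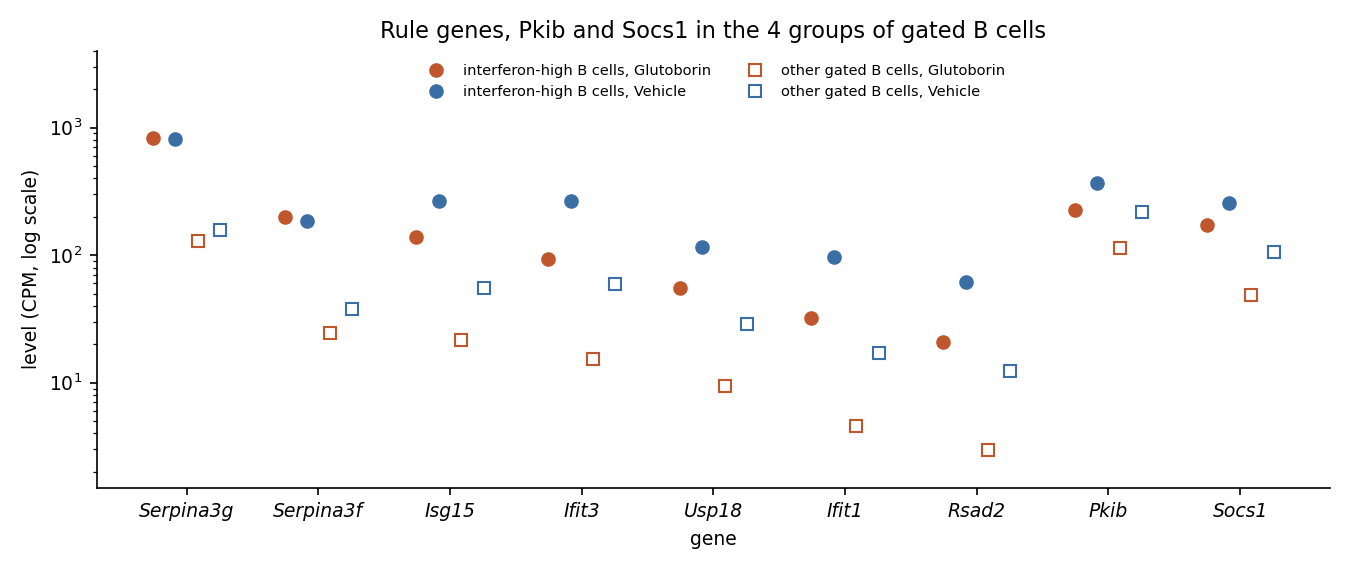
Level in CPM (log axis) of the 7 rule genes, Pkib and Socs1 in interferon-high (filled circles) and other gated (open squares) B cells of each library. Among interferon-high cells Serpina3g stood at 832 CPM in Glutoborin and 813 CPM in Vehicle, whereas Ifit3 stood at 93.1 and 267 CPM.

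Of the 6 markers of the label, Serpina3g, Serpina3f, Isg15 and Ifit3 are rule genes and had to be higher. Pkib and Socs1 are not in the rule, but the label and its markers were taken from these same data. Their levels describe the chosen cells and are not independent support for the label. Within each library the 6 were higher in interferon-high than in other gated B cells, by log2 ratios of 0.99 (Pkib) to 3.02 (Serpina3f) in Glutoborin and 0.77 (Pkib) to 2.37 (Serpina3g) in Vehicle. Pkib, an inhibitor of protein kinase A that the rule did not use, had 225 CPM in Glutoborin and 369 CPM in Vehicle interferon-high cells, against 114 and 217 CPM in other gated B cells. At 2000 UMIs per cell Pkib was detected in 34.3% of Glutoborin and 48.2% of Vehicle interferon-high cells, in 19.4% and 34.6% of other gated B cells and in 0.521% and 2.51% of T cells. Socs1, the feedback inhibitor of Janus kinases, had 173 and 255 CPM in interferon-high cells, against 48.9 and 107 CPM in other gated B cells. B cell identity was plain: Cd79b, the partner of Cd79a, had 1605 and 1645 CPM in interferon-high cells, and Ms4a1, which encodes CD20, 1224 and 1367 CPM.

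Between libraries the type I level of the label was not shared. The 74 genes of the type I interferon list that are not rule genes summed to 12009 CPM in Glutoborin and 19258 CPM in Vehicle interferon-high cells, against 8789 and 14077 CPM in other gated B cells. The Glutoborin interferon-high cells thus lay below the Vehicle cells that failed the rule. They were near the Vehicle cells with no rule UMI at all, which had 12196 CPM (12024 to 12369). The 36 genes of the interferon gamma list outside the rule and the type I list summed to 4900 CPM in Glutoborin and 6498 CPM in Vehicle interferon-high cells, against 3017 and 4335 CPM in other gated B cells, and 3705 CPM in Vehicle cells with no rule UMI. On this list the Glutoborin interferon-high cells lay above the Vehicle cells that failed the rule, unlike on the type I list.

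Over bins of the rule sum both list sums were higher in each higher bin in both libraries, and within each bin the Glutoborin cells stayed lower. At 5 to 6 rule UMIs the type I list had 10695 CPM in Glutoborin and 16938 CPM in Vehicle cells, a log2 ratio of -0.66 (-0.69 to -0.63). At 7 to 9 the ratio was -0.61, at 10 to 14 it was -0.53, and at 15 or more -0.28, where Glutoborin had 25 cells with 20298 CPM and Vehicle 164 cells with 24668 CPM. Below the limit it was -0.60 with no rule UMI, -0.61 at 1 to 2 and -0.57 at 3 to 4. For the interferon gamma list the ratios ran from -0.48 with no rule UMI to -0.16 at 10 to 14, all of them below 0. Single steps did not all follow: at 5 and at 4 rule UMIs the type I list had 10116 and 10710 CPM in Glutoborin, and 17058 and 16131 CPM in Vehicle.

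**Figure D3:**
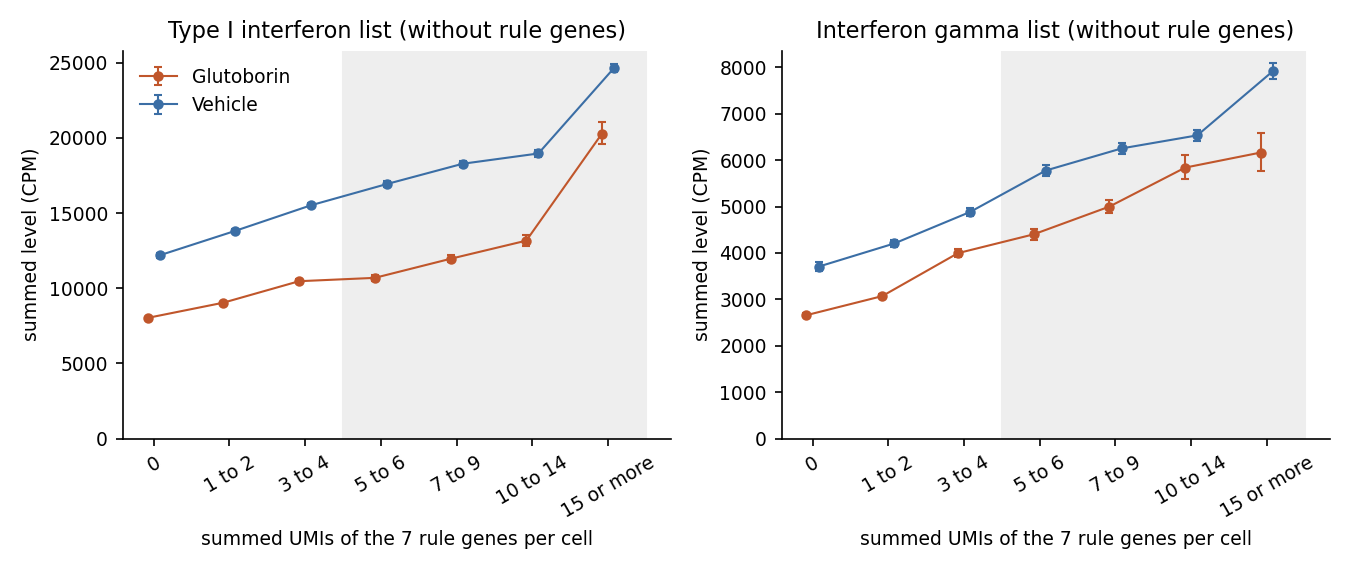
Summed level in CPM of the type I interferon list (left) and the interferon gamma list (right), both without the rule genes, in gated B cells binned by summed rule UMIs. Bars are exact Poisson intervals and the grey area marks interferon-high cells. In each bin the Glutoborin points lie below the Vehicle points, for example 10695 against 16938 CPM of the type I list at 5 to 6 rule UMIs.

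Most interferon-high cells, 245 in Glutoborin and 876 in Vehicle, carried UMIs of both a serpin and an antiviral rule gene. In gated B cells without any UMI of the 5 antiviral rule genes, the interferon gamma list had 4884 CPM in Glutoborin and 6445 CPM in Vehicle cells with 5 or more serpin UMIs, against 2659 and 3705 CPM in cells with none. The type I list in the same cells had 10698 and 15377 CPM, against 8030 and 12196 CPM. In cells with 5 or more UMIs of the antiviral genes and no serpin UMI, 15 in Glutoborin and 59 in Vehicle, the type I list had 15564 and 20338 CPM and the interferon gamma list 4877 and 4932 CPM. The type I level was thus higher in antiviral-only than in serpin-only cells of both libraries, whereas the interferon gamma level was lower in Vehicle and nearly the same in Glutoborin. Irf7, a transcription factor that amplifies the type I response, also differed between these kinds. It had 265 CPM in Glutoborin and 337 CPM in Vehicle cells chosen by antiviral genes alone, and 60.8 and 202 CPM in those chosen by serpins alone. The antiviral-only cells were chosen by genes of the type I response. Their higher type I level and Irf7 therefore describe that choice and support nothing.

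Against other gated B cells, 434 of 9707 genes tested (4.47%) were at least 1.5-fold higher and 490 (5.05%) lower in Glutoborin interferon-high cells, and 351 of 9185 (3.82%) were higher and 162 (1.76%) lower in Vehicle ones. A gene was tested if it had 50 or more UMIs over the groups compared. Of the type I list 40 of 67 measured genes were higher and none lower in Glutoborin, with a median log2 ratio of 0.76, and 44 of 71 and none in Vehicle, with a median of 0.66. Of the interferon gamma list 19 of 28 and 20 of 31 were higher and none lower, with medians of 0.85 and 0.87. The rule chose cells by genes of the same response, so these counts describe the choice and support nothing. The median over all genes tested was -0.06 in Glutoborin and -0.02 in Vehicle.

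The genes outside the rule that stood highest in interferon-high cells of both libraries included 8 interferon-inducible GTPases among the 20 named, a family that acts on vacuoles that hold intracellular microbes. Iigp1 had 50.7 CPM in Glutoborin and 96.7 CPM in Vehicle interferon-high cells, against 9.90 and 25.3 CPM in other gated B cells. Gbp7 had 224 and 334 CPM, against 65.5 and 121 CPM. Gbp2, Gbp4, Igtp, Tgtp2, Ifi47 and Irgm1 belong to the same GTPase families, and their log2 ratios ran from 1.13 (Tgtp2) to 1.59 (Gbp4) in Glutoborin and from 0.87 (Ifi47) to 1.08 (Gbp2) in Vehicle. Slfn5, a member of the Schlafen family, had 90.9 and 250 CPM against 35.4 and 93.6 CPM, and Zbp1, a sensor of nucleic acids, 192 and 383 CPM against 83.2 and 207 CPM. Ifitm3, which blocks viral entry, had 66.8 and 220 CPM against 29.0 and 109 CPM, and Oasl2, of the oligoadenylate synthetase family, 55.6 and 135 CPM against 21.8 and 68.2 CPM. Mpeg1, a pore-forming protein, had 52.2 and 84.1 CPM against 19.4 and 36.3 CPM. Of 4 measured serpin genes outside the rule, 3 were at least 1.5-fold higher in each library: Serpinb9, an inhibitor of granzyme B, had 25.2 and 18.6 CPM against 8.48 and 9.50 CPM, Serpinb6b 15.02 and 12.4 CPM against 7.51 and 7.19 CPM, and Serpinb1a, an inhibitor of neutrophil proteases, 470 and 514 CPM against 301 and 340 CPM. Without the cells described below that carried markers of other lineages, Serpinb1a alone was past 1.5-fold upward in each library, Serpinb9 had log2 ratios of 0.55 in Glutoborin and 0.42 in Vehicle, and Serpinb6b had -0.77 in Glutoborin and 0.0013 in Vehicle.

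The 10 genes named as lowest in interferon-high cells were lower by less. Pxdc1 had 86.0 CPM in Glutoborin and 68.4 CPM in Vehicle interferon-high cells, against 129 and 106 CPM in other gated B cells. Fcer2a, which encodes the follicular B cell antigen CD23, had 213 and 165 CPM against 280 and 235 CPM. Hvcn1 (a proton channel), Id3 (a blocker of E proteins), Cd55 (a complement regulator), Rasgrp2 (a Rap exchange factor), Fcmr (the IgM Fc receptor), Gm19951, Chst3 and Add3 had log2 ratios of -0.57 (Id3) to -0.36 (Add3) in Glutoborin and -0.50 (Gm19951) to -0.29 (Fcmr) in Vehicle. None of the 9 follicular genes measured was 1.5-fold higher or lower in either library, with medians of -0.23 and -0.16, and of the marginal zone list 1 of 10 was higher in Glutoborin and 0 of 9 in Vehicle, with medians of 0.27 and 0.18.

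Some interferon-high cells carried transcripts of other lineages, and their values are given beside the genes they move with. Cells with 10 or more UMIs over the T, NK, monocyte, neutrophil and dendritic cell marker lists, or with 10 or more UMIs of Jchain (the joining chain of secreted antibody), were 25 of 460 in Glutoborin (5.43%, 3.55 to 7.92%) and 102 of 1101 in Vehicle (9.26%, 7.62 to 11.1%), against 1.61% and 4.23% of other gated B cells. Their median depths were 11282 and 7038 UMIs. The 7 NK markers summed to 1093 CPM in Glutoborin and 675 CPM in Vehicle interferon-high cells, against 270 and 238 CPM in other gated B cells, and without those cells to 71.3 and 71.9 CPM against 74.6 and 76.7 CPM. The 12 monocyte markers summed to 410 and 378 CPM against 138 and 269 CPM, and without those cells to 121 and 179 CPM against 105 and 189 CPM. Most of this sum was 1 gene: Ly6c2 gave 974 of 1092 UMIs in Glutoborin and 1865 of 2397 in Vehicle interferon-high cells. Of the 25 and 102 cells left out, 10 and 64 had 10 or more UMIs over the monocyte list. The 10 T cell markers summed to 113 and 154 CPM against 91.0 and 121 CPM, the 9 neutrophil markers to 79.2 and 60.5 CPM against 34.8 and 74.7 CPM, and the 9 dendritic cell markers to 13.5 and 11.5 CPM against 9.68 and 13.5 CPM. At most 1 marker of a list was at 0 in interferon-high cells of a library. Scrublet called 13 doublets among the interferon-high cells of each library, 2.83% in Glutoborin and 1.18% in Vehicle, against 0.570% and 0.249% of other gated B cells. Among the 25 and 102 cells with other markers it called 12 and 11. Ccl5, Nkg7, Gzma, Id2 and Fcer1g, genes of NK and other innate cells, and Jchain also ranked among the 20 highest. Their 10 richest cells held 71.6% (Id2) to 99.3% (Jchain) of the UMIs in Glutoborin. Without the cells carrying other markers 5 of these 6 genes were within 1.5-fold between interferon-high and other gated B cells of both libraries, and Id2 had log2 ratios of 1.05 and 0.42. Jchain, Ccl5, Nkg7 and Gzma are among the genes that decided which cells were left out, so their lower ratios without those cells follow in part from that choice. The part of such cells in the other results was not tested beyond the values given without them.

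The main comparison asks how the same class of cell differed between treatments. Of 8473 genes tested in interferon-high cells, 223 (2.63%) were at least 1.5-fold higher and 444 (5.24%) lower in Glutoborin, with a median over all genes of -0.04. Of the type I list outside the rule, 58 of 70 measured genes were lower and 1 higher, with a median log2 ratio of -0.95. In other gated B cells, where 2.69% of all genes were higher and 2.59% lower, 52 of 68 were lower and none higher, with a median of -0.88. Of the interferon gamma list 15 of 30 were lower and none higher in interferon-high cells, with a median of -0.60, and 20 of 28 lower in other gated B cells, with a median of -0.83. Most type I list genes were thus lower in Glutoborin interferon-high cells although these had passed the same limit. CPM are relative to each group's total.

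Among factors that carry or amplify the signal, Irf7 had 115 CPM in Glutoborin and 312 CPM in Vehicle interferon-high cells, a log2 ratio of -1.44 (-1.62 to -1.26). Stat2 had 81.5 and 144 CPM, a log2 ratio of -0.82 (-1.04 to -0.61). Irf9, its DNA-binding partner, had 95.4 and 107 CPM, a ratio of -0.16 whose interval of -0.37 to 0.05 holds 0. Receptor chains and kinases differed little: Ifnar1 had a ratio of -0.31 (-0.65 to 0.03), Ifnar2 -0.08 (-0.44 to 0.26), Ifngr1 0.21 (-0.08 to 0.49), Ifngr2 0.30 (-0.02 to 0.62), Jak2 -0.11 (-0.56 to 0.32) and Tyk2 0.12 (-0.35 to 0.58), and Jak1 was slightly higher at 0.17 (0.04 to 0.30). Of the 11 genes of this list only Stat2 passed 1.5-fold. Interferon transcripts themselves were almost absent. Ifna1, Ifna2, Ifna4, Ifnb1, Ifnl2 and Ifnl3 had 0 UMIs in both, which allows up to 3 UMIs a library, and Ifng had 14 UMIs in Glutoborin and 69 in Vehicle, of which the 10 richest cells held 100% and 81.2%. Without the cells carrying markers of other lineages or Jchain, Ifng had 1 UMI in Glutoborin and 11 in Vehicle.

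The genes named as lowest in Glutoborin were, with 1 exception, members of the type I list, Irf7 among them. Ifitm3 had 66.8 CPM in Glutoborin and 220 CPM in Vehicle interferon-high cells, a log2 ratio of -1.72 (-1.95 to -1.49). Slfn5 had a ratio of -1.46 (-1.66 to -1.26) and Rnf213, a giant ubiquitin ligase, -1.37 (-1.59 to -1.16). Ifit2 had 27.0 and 77.0 CPM and Ifit3b 19.9 and 57.5 CPM, ratios of -1.51 and -1.53. The synthetases Oas3 and Oasl2 had ratios of -1.43 and -1.28, Ifi208, a member of the interferon-inducible PYHIN family, had -1.25, and Rtp4, a chaperone of receptors, -1.20. Ifi27l2a had 1094 and 2379 CPM, with a ratio of -1.12 (-1.18 to -1.06). The exception was Zfp36l2, which encodes an RNA-binding protein that promotes mRNA decay and is not in the list. It had 130 CPM in Glutoborin and 301 CPM in Vehicle, a ratio of -1.21 (-1.38 to -1.05), and other gated B cells had more of it, at 175 and 364 CPM.

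Some list genes were close to equal. Ly6e, an antiviral surface protein, had 2069 CPM in Glutoborin and 2115 CPM in Vehicle, a log2 ratio of -0.03 (-0.08 to 0.01). Uba7, the enzyme that activates Isg15, had 62.3 and 66.0 CPM, a ratio of -0.08 (-0.35 to 0.18). Ifi27, a mitochondrial protein, was the only list gene past 1.5-fold upward. It had 76.6 and 48.4 CPM, a ratio of 0.66 (0.40 to 0.92), and 68.0 and 51.8 CPM in other gated B cells.

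Within the interferon gamma list some ratios were nearer to 0 in interferon-high than in other gated B cells. Socs1 and 4 GTPases are given as examples. Gbp6 had 48.8 CPM in Glutoborin and 82.6 CPM in Vehicle interferon-high cells, a log2 ratio of -0.76 (-1.05 to -0.48), and 12.2 and 38.4 CPM in other gated B cells, a ratio of -1.66 (-1.92 to -1.40). Irgm1 had ratios of -0.43 (-0.55 to -0.31) and -1.05 (-1.15 to -0.95), Igtp -0.52 and -1.04, and Gbp4 -0.64 and -1.25. Socs1 had -0.56 (-0.71 to -0.41) and -1.13 (-1.27 to -0.99). These intervals did not overlap, but the genes are picked examples, and no share of such genes over the list or all genes is given. Other GTPases did not all shift alike. Without cells carrying markers of other lineages, Gbp9 had -0.82 and -0.87, Gbp8 -1.28 and -1.27, and Ifi47 -0.65 and -1.12. The rule also did not match the rule sum between libraries in either cell group. Interferon-high cells shared only the lower limit. Their median rule sums were 7 in Glutoborin and 8 in Vehicle, and 47.6% and 30.7% of them stood at 5 to 6. The reason for the nearer ratios was not tested. The interferon gamma-induced chemokines Cxcl9 and Cxcl10 had ratios of -2.64 and -1.46 on few UMIs. Cxcl9 had 2.25 CPM in Glutoborin and 14.02 CPM in Vehicle, Cxcl10 had 9.76 and 26.9 CPM, and 10 cells held 84.3% and 59.6% of their Vehicle UMIs. Cd274, which encodes the checkpoint ligand PD-L1, had 53.3 and 87.3 CPM, a ratio of -0.71 (-0.99 to -0.44). Ciita and Irf8 stayed within counting error of no difference, at -0.04 each.

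**Figure D4:**
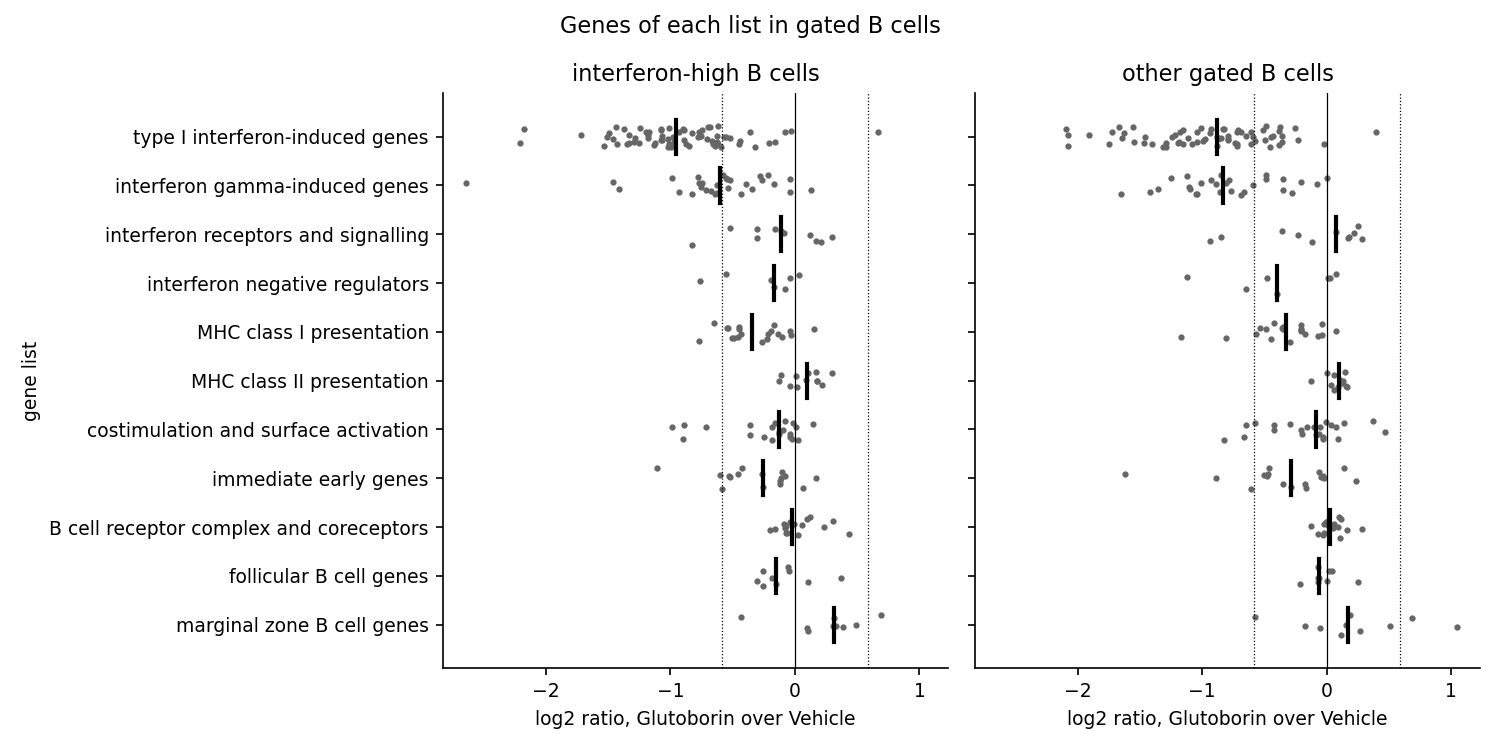
Log2 ratio of Glutoborin over Vehicle for each measured gene (grey points) and the median (black bar) of 11 gene lists without the rule genes, in interferon-high (left) and other gated (right) B cells. Dotted lines mark 1.5-fold. The type I list has medians of -0.95 and -0.88, and the interferon gamma list -0.60 and -0.83.

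In antigen presentation few genes passed 1.5-fold, beside 5.24% of all genes lower. Of 20 MHC class I presentation genes 2 were at least 1.5-fold lower in Glutoborin interferon-high cells, with a median of -0.35: Nlrc5, the class I transactivator, with 48.8 and 83.2 CPM, and the nonclassical H2-T24, with 24.03 and 37.7 CPM. The peptide-loading chaperone Tapbp and the proteasome activators Psme1 and Psme2 had ratios of -0.54 (-0.68 to -0.41), -0.49 (-0.58 to -0.41) and -0.46 (-0.57 to -0.35), whereas the classical heavy chains H2-K1 and H2-D1 had -0.03 and -0.04 with intervals that hold 0. H2 genes are near-identical copies, so their separate counts are uncertain. None of 12 MHC class II genes passed 1.5-fold in either direction, and their median was 0.09.

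Of 21 costimulation and surface activation genes 4 were lower and none higher, with a median of -0.13. Cd69, an early activation antigen that type I interferon induces, had 193 CPM in Glutoborin and 359 CPM in Vehicle interferon-high cells, a log2 ratio of -0.90 (-1.04 to -0.76). Tlr7, the sensor of single-stranded RNA, had 31.5 and 58.6 CPM, a ratio of -0.89 (-1.25 to -0.55), Tlr4 had -0.98 (-1.93 to -0.14) on 5.26 and 10.4 CPM, and Cd274 was the other. The costimulators Cd86 and Cd40 had ratios of -0.36 and -0.25, within 1.5-fold. Of 16 immediate early genes, which answer stimuli within minutes, 3 were lower, Egr1 at 36.4 and 78.5 CPM, Fos at 167 and 252 CPM and Atf3 at 7.13 and 10.7 CPM, with a list median of -0.26. Of 10 heat shock genes 3 were lower, Hspa8, Hsph1 and Hspa1b, with a median of -0.30, beside -0.30 in other gated B cells.

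Genes of the B cell receptor and of follicular B cells were close to equal. None of 16 B cell receptor genes and none of 9 follicular genes passed 1.5-fold, with medians of -0.02 and -0.15. Of 9 marginal zone genes 1 was higher and none lower, with a median of 0.32. This was Cd9, a tetraspanin of marginal zone and B-1 cells, with 49.6 CPM in Glutoborin and 30.7 CPM in Vehicle, a ratio of 0.69 (0.36 to 1.02). Cr2, the complement receptor CD21, had 330.4 and 266.7 CPM, and Dtx1, a regulator of Notch signalling, had 105 and 74.7 CPM, ratios of 0.31 (0.19 to 0.43) and 0.49 (0.28 to 0.71). Other B cell lists held more called genes, beside 2.63% of all genes higher. Higher were 5 of 7 B-1 cell genes, 3 of 8 immunoglobulin constant genes and 3 of 7 T-bet and memory B cell genes. None was lower, and the medians were 0.69, 0.28 and 0.14. Without the cells carrying other markers 1 of 7, 1 of 8 and 1 of 5 were higher, with medians of 0.35, -0.13 and -0.28. None of 12 glycolysis genes passed 1.5-fold. Of 15 Bcl2 family and cell death genes Bcl2a1d, an antiapoptotic protein with near-identical copies, was higher at 19.2 and 10.1 CPM, and Tnfsf10, the death ligand TRAIL and itself interferon-induced, was lower at 3.76 and 10.1 CPM.

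Most genes named as higher in Glutoborin interferon-high cells drew their counts from few cells: for 8 of the 12, the 10 richest cells held 66.8% (S100a6) to 99.3% (Jchain) of the Glutoborin UMIs. Iglc1, an immunoglobulin light chain constant gene, had 5146 CPM in Glutoborin and 856 CPM in Vehicle, a log2 ratio of 2.59 (2.54 to 2.63), but 10 cells held 85.9% of the Glutoborin UMIs, and without the cells that carried markers of other lineages or Jchain the ratio was 0.42 (0.35 to 0.49). Ighm had 0.82 for all cells and -0.20 without those cells, Jchain 0.61 and -1.35, and Iglc2 0.57 and -0.03. Lgals1 and S100a6, genes of motile and effector cells, had 1.03 each, and 0.44 and 0.08 without those cells. Gzma and Ccl5, effectors of NK and T cells, had 0.83 and 0.75, and 0.13 and 0.14 without them. Jchain, Gzma and Ccl5 themselves decided in part which cells were left out, so for these 3 the second value follows in part from that choice. Txndc5, an endoplasmic reticulum chaperone, had 0.62, and 0.28 without them. The type I list median was -0.95 with and without those cells, and of the named lower genes Ifit3b differed most, at -1.53 and -1.34.

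The ratio of 3 named genes stayed near or above 1.5-fold. Pglyrp1, a peptidoglycan-binding protein, had 67.6 CPM in Glutoborin and 38.9 CPM in Vehicle interferon-high cells, a log2 ratio of 0.80 (0.51 to 1.08), and 0.94 without the cells that carried other markers. Ifi27 had 0.66, and 0.71 without them. S100a4, a calcium-binding protein, had 53.3 and 31.04 CPM, a ratio of 0.78 (0.46 to 1.10), and 0.56 without them, although its 10 richest cells held 91.5% of the Glutoborin UMIs.

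**Figure D5:**
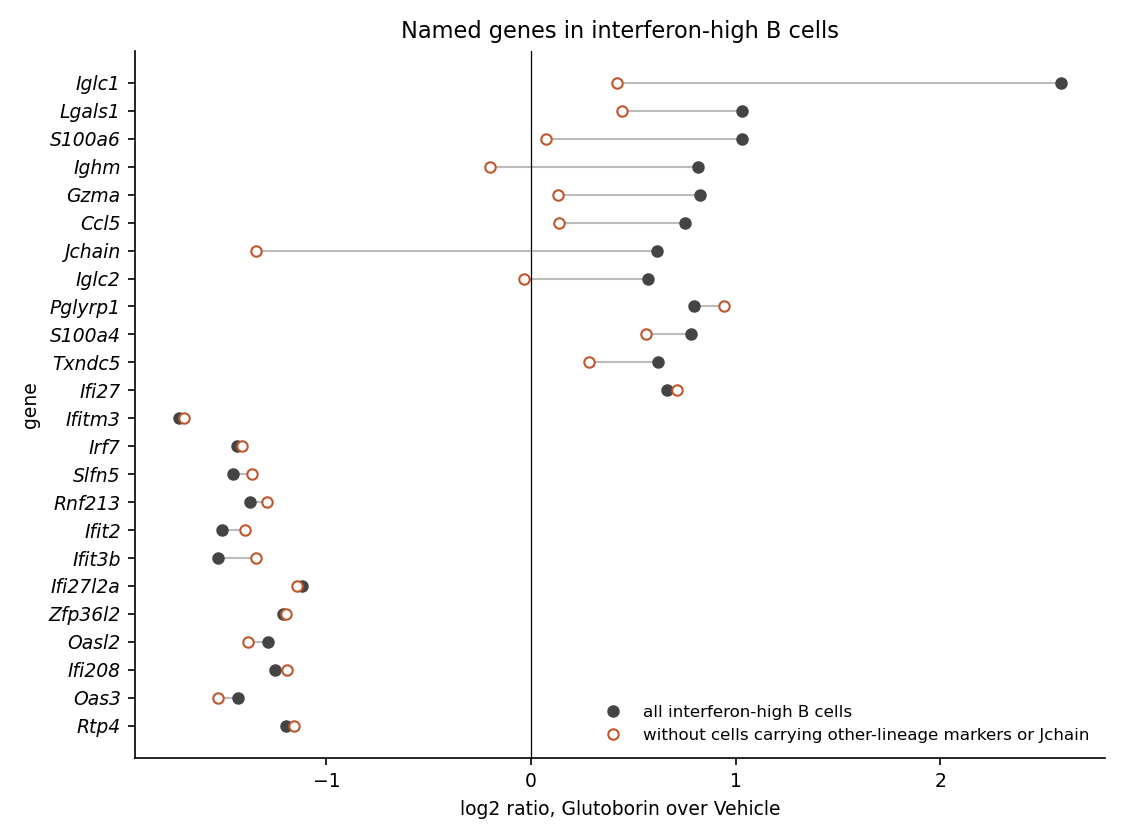
Log2 ratio of Glutoborin over Vehicle in interferon-high B cells for the 12 genes named as higher and the 12 named as lower, in all such cells (filled) and without cells carrying markers of other lineages or Jchain (open). The lower genes hardly move (Ifitm3 -1.72 and -1.70), whereas Iglc1 moves to 0.42, against 2.59 in all cells.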

How the data were processed

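Each of 2 CD45+ spleen libraries (Glutoborin and Vehicle, grouped by the treatment in the labels) was deposited by the authors as a matrix of raw UMI counts (whole numbers, genes by barcodes, not normalized). The libraries came from a 3' droplet kit per the labels' protocols. Per the file headers, Cell Ranger 6.1.2 wrote the matrices. Per the submitters' processing notes, the tools were Cell Ranger 6.0.1 and Seurat 4.3.0 and the build mm10. No source used here gives the gene annotation. The libraries held 9646 and 8204 barcodes with 56862506 and 48526451 UMIs.

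From these counts, UMIs were summed per library and cell group (2663092 and 6347253 UMIs in interferon-high cells) and divided by the group total to give CPM. Shares carry Clopper-Pearson intervals, sums Poisson intervals, and ratios the exact conditional interval of a ratio of Poisson counts. The ratio intervals were run on counts simulated from the same Poisson model. That cannot show how they behave where few cells hold most of the UMIs. A call is a ratio of at least 1.5 either way among genes with 50 or more UMIs over both groups, and no test was run. Named genes had at least 50 CPM in the higher group and were ranked by the bound of the interval that lay closest to equality (20 highest and 10 lowest in interferon-high cells, by the weaker library; 12 on each side between treatments), beside list members. Rule and gate genes, variable segments of antigen receptors and sex-linked, haemoglobin, ribosomal protein and mitochondrial genes were not ranked. 4 list symbols had no match. The members and lists were chosen with earlier results of these data known. Doublets were kept, and Scrublet (scanpy 1.11.5, Python 3.11.15, scipy 1.17.1) served as an alternative, as did other limits, scalings and the removal of cells with markers of another lineage, the last chosen after seeing the data.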

Additional observations from a re-analysis of the deposited data

How the results depend on the processing

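Every value rests on 1 library per group, so nothing here measures the spread between mice. No paired analysis was possible because the labels give no replicate numbers and each group is 1 library, and leaving out a library leaves no comparison. Depth limits genes under 50 UMIs and the 25 Glutoborin cells with 15 or more rule UMIs.

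The share of interferon-high cells was lower in Glutoborin under every alternative tried. In Glutoborin and Vehicle it was 21.9% and 59.8% at 3 or more rule UMIs (log2 ratio -1.45), 1.85% and 15.95% at 10 or more (-3.11), 2.55% and 14.1% thinned to 2000 UMIs at 5 or more (-2.47), 8.71% and 30.6% thinned at 3 or more, and 1.11% and 13.7% without Serpina3g and Serpina3f (-3.62). In Vehicle it was 42.6% with mitochondrial UMIs under 5%, 38.0% with them under 25%, and 43.3% with activated cells kept.

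Counts of genes past 1.5-fold moved with the limit on UMIs, since fewer or more genes were tested. Between treatments, 525 were higher and 729 lower at 20 or more UMIs, 30 and 151 at 200 or more, and 343 higher among cells with 10 or more rule UMIs. Between interferon-high and other gated B cells of Glutoborin, 778 were higher and 816 lower at 20 or more UMIs, 151 and 147 at 200 or more, and 1046 and 1739 with 10 or more rule UMIs. In Vehicle, 677 and 371 were at 20 or more UMIs, 149 and 6 at 200 or more, 350 lower with 10 or more rule UMIs, and 221 higher without cells carrying markers of other lineages.

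The type I list median between treatments was -0.56 among cells with 10 or more rule UMIs and -0.30 at 15 or more; the cause was not tested. Without cells carrying markers of other lineages, in interferon-high against other gated B cells of Glutoborin and Vehicle, the B-1 list median was 0.33 and -0.086 and the plasma cell median -0.13 and 0.017. In Glutoborin the T-bet and memory median was 0.20 and the immunoglobulin constant median -0.12, and in Vehicle the T cell marker median was -0.21. Between treatments the plasma cell median was then -0.19 and the immunoglobulin constant median -0.13. With 20 or more UMIs, the immunoglobulin constant median between treatments was 0.57 and the T-bet and memory median in Vehicle 0.63.

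Among single genes, between treatments, Jchain turned to -4.59 with 10 or more rule UMIs and to -1.35 without cells carrying other markers, Ighm to -0.20 without those cells, and Ccl5 to -1.504 with Scrublet doublets left out. Of 56 named genes and rule genes, 18 stayed within their interval with 10 or more rule UMIs (37 moved and 1 turned), 45 with Scrublet doublets left out (10 moved and 1 turned), 44 without cells carrying other markers (10 moved and 2 turned), 44 with each cell weighted equally and 55 under median-of-ratios scaling.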

Other observations

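Genes of cell division stood higher in interferon-high than in other gated B cells, on few cells. Of 11 and 9 measured G2 and M phase genes, 8 were at least 1.5-fold higher in Glutoborin and 7 in Vehicle. Their median log2 ratios were 1.58 and 1.22. Over all genes tested, 4.47% and 3.82% were higher. Without the cells that carried markers of other lineages or Jchain, 6 of 10 and 2 of 5 were higher, and the medians were 0.93 and 0.49. Mki67, the proliferation antigen, had 22.2 CPM in Glutoborin and 32.1 CPM in Vehicle interferon-high cells, and the 10 richest cells held 100% and 97.1% of its UMIs. At 2000 UMIs per cell it was detected in 0.873% and 0.910% of interferon-high cells, against 0.472% and 0.573% of other gated B cells, with intervals that overlap.

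Some B-1 cell genes were higher in Glutoborin interferon-high cells, fewer of them without the cells carrying other markers. Of 7 measured, 5 were higher and none lower, with a median of 0.69, beside 2.63% of all genes higher. Without the cells carrying other markers 1 was higher, with a median of 0.35. In other gated B cells the median was -0.06. The difference between interferon-high and other gated B cells was not tested.

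Between treatments, 8473 genes were tested in interferon-high and 9958 in other gated B cells. Over all genes, 34 had a Glutoborin over Vehicle interval on 1 side of 0 in interferon-high cells and on the opposite side in other gated B cells, and 11 of them kept this without the cells carrying other markers. S100a4 was 1 of the 11, at 0.78 in interferon-high and -1.62 in other gated B cells. Igha, the constant gene of IgA, was another, at 0.95 (0.31 to 1.59) and -0.69 (-1.01 to -0.36), on 39 UMIs in Glutoborin and 48 in Vehicle interferon-high cells. These genes were chosen after their values were seen.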
